A study of Mus musculus with 6 samples.

Results

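The genes described here are 10 ligands and receptors of the vascular endothelial growth factor (VEGF) and angiopoietin systems, Vegfa, Vegfb, Vegfc, Pgf, Flt1, Kdr, Flt4, Angpt1, Angpt2 and Angptl4. They were chosen by name and found by matching the mouse Ensembl identifiers of the deposited matrix to GENCODE M21 symbols, which gave 10 of the 21785 gene rows. RNA was sequenced from PASMCs, smooth muscle cells of the pulmonary arteries, which were grown out of C57BL/6 mouse lungs after iron particles had been lodged in the vessels and the minced tissue pulled down with a magnet. All samples were first kept for 48 h in medium without supplements. The 3 samples titled BMP_stim were then given bone morphogenetic protein 9 (BMP9) at 1 ng/mL and BMP10 at 5 ng/mL together for 6 h, and the 3 titled CTRL were not. The labels give neither age nor number of animals, nor whether replicates were separate cultures; p-values therefore cover only the variation among these 6 samples, which may be technical.

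VEGF ligands act through 3 receptor tyrosine kinases. VEGF-A binds FLT1 (VEGFR1) and KDR (VEGFR2), the main signalling receptor of blood vessel endothelium; VEGF-B and placental growth factor (the Pgf product) bind FLT1, which holds ligand tightly and signals weakly; VEGF-C binds FLT4 (VEGFR3), the receptor of lymphatic endothelium. Angiopoietin 1, made by mural cells, activates the endothelial receptor TIE2 (the Tek product) and stabilises vessels, and angiopoietin 2, made largely by endothelium, can block it. ANGPTL4 resembles the angiopoietins in sequence but inhibits lipoprotein lipase and does not act through TIE2. In the vessel wall, smooth muscle cells mainly supply ligand and endothelial cells carry the receptors.

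All 10 genes were detected in every library, the lowest value being 247 normalized read counts (read counts scaled by 1 factor per library). Library totals ranged from 27295973 to 28283597 in controls and from 30786695 to 31903795 after stimulation, without overlap. The reads behind these totals were estimated at 23.2 to 54.3 M, deepest in stimulated replicate 3. The 8 smooth muscle markers were all present, with Acta2 the highest among them at up to 153164, but so were markers of other cells. The summed level of 20 endothelial markers was 12831, 48402 and 15050 in control replicates 1, 2 and 3 and 10664, 43106 and 16474 in stimulated replicates 1, 2 and 3. None of the 20 was at 0 in any library, and 19 were highest in replicate 2 of both groups, as were 24.8% of all genes tested. The sum of 8 lung epithelial markers was also highest there, at 35628 in controls (against 5384 and 8934) and 38507 after stimulation (against 2824 and 17438). The sum of 7 macrophage markers ran from 91045 to 156386 in controls and from 136549 to 203531 in stimulated samples. Lyz2 alone made up most of the macrophage sum, at 81014 to 138253 in controls and 123461 to 179899 after stimulation. Sftpc was the largest part of the epithelial sum in replicate 2, at 19538 in the control and 29469 after stimulation. In such bulk RNA, fewer cells of a type and less RNA per cell cannot be told apart.

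The comparison asks which of these genes changed with BMP9 and BMP10. Of the 10, Vegfa, Vegfc and Flt1 rose, Angptl4 fell and 6 did not pass the test (limma on log2(value + 1), Benjamini-Hochberg adjusted p under 0.05 over 21743 genes), while 8.61% of all genes tested were called higher and 4.75% lower. The fit was also made with the replicate number as a block. Like-numbered samples deviated together from their group means for numbers 1 and 2 (correlations of 0.747 and 0.741). For number 3 the correlation was only 0.218, and control replicate 3 was closer to stimulated replicate 1 (0.287). The block fit called 7 of the 10: Kdr was added to the higher genes, and Vegfb and Pgf to the lower ones. Of all genes, it called 14.9% higher and 12% lower, 26.8% in all, against 13.4% in all with treatment only. limma-voom, which weights each value by its precision and here also scaled values to library totals, called 4 of the 10. Of all genes it called 15.5% (5.19% higher and 10.4% lower), with a median log2 change of -0.21. The groups did not overlap for 5 of the 10 genes, 3 higher and 2 lower, against 33.2% of all genes tested (17.8% higher and 15.4% lower). The median log2 change of the 10 was -0.23, and that of all genes tested was -0.03. With library totals set equal, 1135 of all genes were called higher and 2265 lower, in place of 1873 and 1032, and the median of all genes moved to -0.20; the calls of the 10 genes were the same.

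Markers of cell types moved with treatment as well. Of the 8 smooth muscle markers 4 rose and none fell, and their summed level was 34382 to 53248 in controls and 83819 to 178986 after stimulation. Acta2, smooth muscle actin, made up most of that sum. It rose from 31090 ± 7140 to 109197 ± 42168 (SD, n = 3), a log2 change of 1.76 ± 0.30 (limma adjusted p = 0.0121). Of 7 pericyte markers 2 rose, Cspg4 by 1.77 ± 0.13 and Pdgfrb by 0.70 ± 0.08, and 5 were not called. The lowest change was that of Kcnj8 (-0.99 ± 0.46, limma adjusted p = 0.211, and 0.041 with the block). Abcc9 (-0.33), Higd1b (-0.31) and Notch3 (0.27) were called in neither fit, and Rgs5 (0.62) was called higher only with the block. The median log2 change of the 7 was 0.27. Of 6 fibroblast markers Pdgfra fell, with a change of -1.29 ± 0.18. The other 5 were called in neither fit: Col1a1 (0.10), Dcn (-0.02), Lum (-0.04), Col1a2 (-0.15) and Tcf21 (-0.29). The median of the 6 was -0.10. These pericyte and fibroblast names were chosen after their values were seen. The sum of 5 lymphatic endothelial markers was 802, 2710 and 1203 in controls and 549, 1495 and 696 after stimulation, lower in each pair, with none of the 5 called (2 had an unadjusted p under 0.05 by limma, limma-voom called none, and the block fit called 1 lower). That 1 was Lyve1, at 382, 1437 and 516 in controls and 222, 308 and 164 after stimulation. The log2 changes of the 5 ran from -1.55 for Lyve1 to 0.05 for Ccl21a, with a median of -0.53. Both names were chosen after their values were seen. The part of these shifts in the changes of the 10 genes was not tested.

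**Figure D1:**
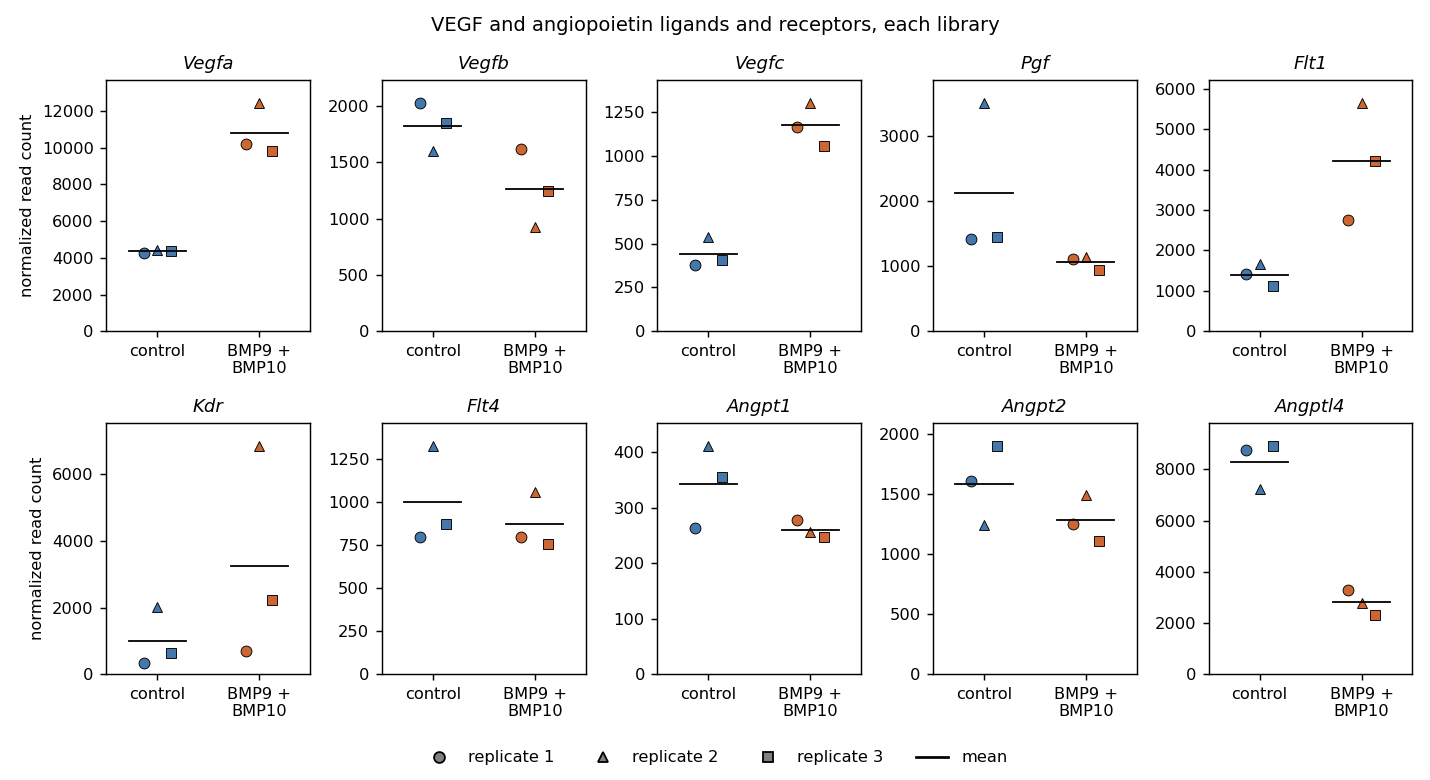
Normalized read count (vertical axes, from 0) of each of the 10 genes in the 3 control and 3 stimulated libraries; symbols mark the replicate number and bars the group mean. Vegfa, Vegfc and Flt1 lie higher in all stimulated libraries and Angptl4 lower, while Kdr is highest in replicate 2 of both groups.

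**Figure D2:**
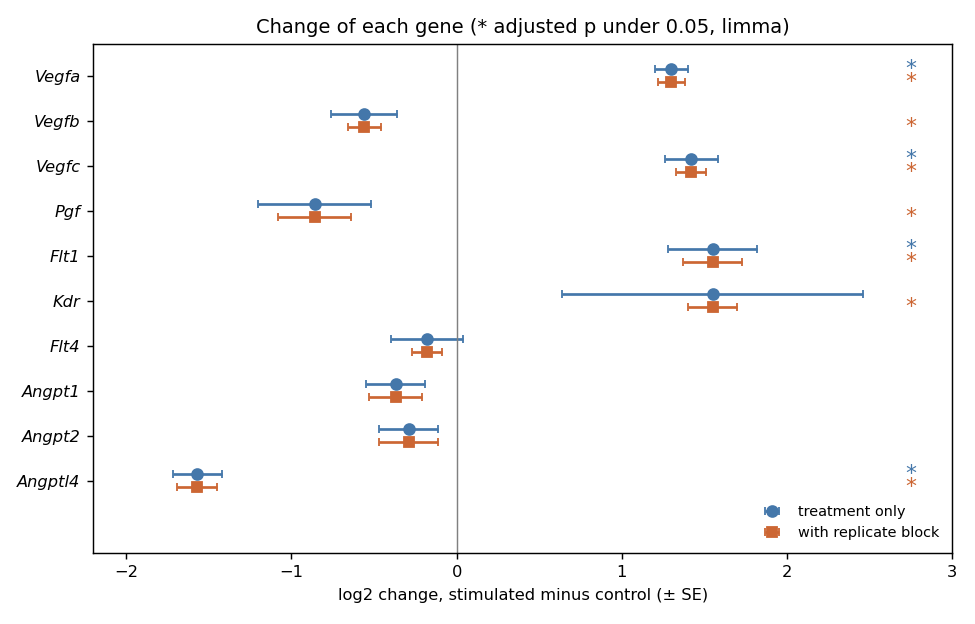
Change of each gene (horizontal axis, log2, stimulated minus control, ± SE) by limma with treatment only (circles) and with the replicate number as a block (squares); asterisks mark an adjusted p under 0.05. The error of Kdr shrinks from 0.91 to 0.15 with the block at the same change of 1.55.

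The sequences upstream of the 3 genes that rose are shown so that their make-up can be compared, since these members moved the same way. Each is the 250 bases before the RefSeq start (GRCm38.p6, the assembly of mm10), 5′ to 3′ on the strand of the gene, with capitals for any match to 5 motifs, searched on both strands and with no letters required around them. GGCGCC is a GC-rich element that SMAD1/5 can bind, and CAGACA holds a core SMAD site. ACGTG is the core of the hypoxia response element. CCGGAAG is an ETS factor site, and TGACTCA is an AP-1 site. The Vegfa window is chr17:46032378-46032627 (minus strand), the Vegfc window chr8:54077282-54077531 (plus strand) and the Flt1 window chr5:147726012-147726261 (minus strand).
Vegfa: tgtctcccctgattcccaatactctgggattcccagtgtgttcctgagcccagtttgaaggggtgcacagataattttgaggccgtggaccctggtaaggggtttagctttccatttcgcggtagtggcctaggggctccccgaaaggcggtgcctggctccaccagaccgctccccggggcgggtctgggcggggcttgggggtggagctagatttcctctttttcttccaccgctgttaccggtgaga
Vegfc: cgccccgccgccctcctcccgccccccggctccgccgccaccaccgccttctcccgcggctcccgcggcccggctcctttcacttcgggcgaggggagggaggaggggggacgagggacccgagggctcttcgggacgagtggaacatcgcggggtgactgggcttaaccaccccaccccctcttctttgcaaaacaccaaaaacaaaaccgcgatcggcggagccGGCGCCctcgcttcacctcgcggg
Flt1: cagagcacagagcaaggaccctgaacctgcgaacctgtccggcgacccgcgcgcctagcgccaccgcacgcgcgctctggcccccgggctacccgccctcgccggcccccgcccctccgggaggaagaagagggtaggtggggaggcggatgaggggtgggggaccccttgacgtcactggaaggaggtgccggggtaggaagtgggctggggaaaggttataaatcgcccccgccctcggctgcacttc
The Vegfc window held GGCGCC once, its first base 24 bases before the start, and no match lay in the Vegfa or Flt1 window. Of the 32851 windows of that length in the RefSeq promoter table, 9.59% held GGCGCC and 17.1% held CAGACA. The hypoxia core occurred in 16.6% of them, the ETS site in 6.91% and the AP-1 site in 4.46%. Of the 10 genes, 7 matched the table, all but Angpt1, Angpt2 and Angptl4. One of the Pgf windows held GGCGCC, and a window upstream of another Vegfa start held ACGTG and CAGACA; the windows of Vegfb, Kdr and Flt4 held none of the 5 motifs. No match says only that these letters are not in these windows.

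Among the VEGF ligands, Vegfa and Vegfc rose. The Vegfa gene lies on chromosome 17 from 46016993 to 46032369 in mm10. It stood at 4276, 4417 and 4381 normalized read counts in control replicates 1, 2 and 3 and at 10181, 12456 and 9811 in stimulated replicates 1, 2 and 3. Every stimulated library was above every control, and the controls lay close together. Vegfa rose from 4358 ± 73.3 to 10816 ± 1432 (SD, n = 3 per group), a log2 change of 1.30 ± 0.10 (SE; limma adjusted p = 0.000921). By replicate number the ratio of stimulated to control was 2.38, 2.82 and 2.24.

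Vegfc, the ligand of the lymphatic receptor, is on chromosome 8 from 54077606 to 54187096. Its normalized read counts were 378, 539 and 408 in controls and 1163, 1304 and 1055 after stimulation, again with no overlap. It rose from 442 ± 85.6 to 1174 ± 125 (log2 change 1.42 ± 0.16, limma adjusted p = 0.00282), with ratios of 3.08, 2.42 and 2.59 in pairs 1, 2 and 3. Replicate 2 was the highest library in both groups, at 1.37-fold over the mean of the other controls and 1.18-fold over the other stimulated samples. The calls of Vegfa and Vegfc held in all 18 alternative fits.

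Vegfb and Pgf, whose products bind FLT1 and not KDR, had lower means after stimulation. Vegfb was at 2031, 1597 and 1846 in controls and 1616, 930 and 1245 after stimulation, so that stimulated replicate 1 lay within the control range. Its log2 change was -0.56 ± 0.20 (limma adjusted p = 0.121), and the block fit called it lower (limma adjusted p = 0.00716). The ratio within pairs was 0.796, 0.582 and 0.674, below 1 in 3 of 3. Without stimulated replicate 1 the fit with treatment only called it too (limma adjusted p = 0.045).

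Pgf, the gene of placental growth factor, had an uneven control group. Its normalized read counts were 1410, 3514 and 1445 in controls and 1103, 1143 and 943 after stimulation. Control replicate 2 stood far above the other controls, at 2.46-fold over their mean, whereas stimulated replicate 2 was at 1.12-fold over its neighbours. All stimulated values were below all controls, with pair ratios of 0.782, 0.325 and 0.653. The log2 change was -0.86 ± 0.34 (limma adjusted p = 0.148) and was called lower with the block (limma adjusted p = 0.031). Without control replicate 2 the change was -0.43 (limma adjusted p = 0.0659), and without both replicate 2 libraries -0.48 (limma adjusted p = 0.0569).

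Of the receptor genes, Flt1 passed the test and Flt4 did not, and Kdr passed only with the block. Flt1, on chromosome 5 from 147561604 to 147726011, was at 1420, 1657 and 1108 in controls and at 2764, 5663 and 4225 in stimulated samples. The groups did not overlap. It rose from 1395 ± 275 to 4217 ± 1450 (log2 change 1.55 ± 0.27, limma adjusted p = 0.0127), and the pair ratios were 1.95, 3.42 and 3.81. With control replicate 1 left out the change was 1.58 and no longer passed (limma adjusted p = 0.0508). The same held for leaving out control replicate 3 (1.40, limma adjusted p = 0.0563) and stimulated replicate 3 (1.52, limma adjusted p = 0.0698).

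Kdr, also on chromosome 5 (75932827 to 75978458), had the widest spread of the 10 genes relative to its mean. It was at 337, 2007 and 630 in controls and at 708, 6850 and 2220 after stimulation. The groups overlapped, since control replicate 2 exceeded stimulated replicate 1, and the highest library of each group was replicate 2. Within each pair the stimulated library was higher, by 2.10-fold, 3.41-fold and 3.52-fold. The log2 change of 1.55 ± 0.91 did not pass with treatment only (limma adjusted p = 0.319) and passed with the block (1.55 ± 0.15, limma adjusted p = 0.000843). Without both replicate 2 libraries, in the fit with treatment only, it was 1.44 (limma adjusted p = 0.216); without stimulated replicate 2 it was 0.74 and without stimulated replicate 1 2.37, neither of them called.

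Flt4 showed no call in either fit. Its normalized read counts were 796, 1324 and 870 in controls and 796, 1058 and 756 after stimulation, with replicate 2 the highest in both groups. The log2 change was -0.18 ± 0.22 (limma adjusted p = 0.656, and 0.192 with the block). Replicate 1 had the same value in both groups. Without control replicate 2 the change turned to 0.05 (limma adjusted p = 0.884).

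Of the angiopoietin genes, neither Angpt1 nor Angpt2 passed. Angpt1 was at 263, 412 and 356 in controls and 279, 257 and 247 after stimulation, and the stimulated libraries lay close together (261 ± 16.4) near the lowest control. Its log2 change was -0.37 ± 0.18 (limma adjusted p = 0.23). Of its exonic bases, 14.2% also lie under exons of Gm17473, which is read in the other direction, and the sources used here do not say whether reads were counted by strand. Angpt2 was at 1610, 1241 and 1903 in controls and 1255, 1495 and 1108 after stimulation. Its change was -0.29 ± 0.18 (limma adjusted p = 0.344), with pairs 1 and 3 lower (ratios of 0.78 and 0.582) and pair 2 higher (1.20).

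Angptl4, the lipase inhibitor, fell in every pair. Its gene lies on chromosome 17 from 33773750 to 33781830. The values were 8756, 7223 and 8924 in controls and 3296, 2806 and 2322 after stimulation, a gap with no overlap. The means went from 8301 ± 937 to 2808 ± 487, and the log2 change was -1.57 ± 0.15 (limma adjusted p = 0.00152). The pair ratios were 0.376, 0.388 and 0.26, and the call held in all 18 alternative fits.

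Levels of different genes were compared per kilobase of exon, as normalized read counts divided by the length of the merged exons. In controls Angptl4 was the highest of the 10 at 2344 ± 265 per kilobase (SD, n = 3), followed by Vegfb at 1137 ± 136 and Vegfa at 1017 ± 17.1, whose ranges overlapped. Pgf was at 731 ± 415, with a range from 486 to 1210 that reached both neighbours, and Angpt2 at 429 ± 89.9. Vegfc was at 180 ± 35 (154 to 220), Flt4 at 121 ± 34.7, Kdr at 110 ± 98.7, Flt1 at 103 ± 20.4 and Angpt1 at 66 ± 14.5, and the 3 receptors did not differ from each other beyond their spread. After stimulation Vegfa was the highest at 2524 ± 334 per kilobase, above Angptl4 (793 ± 138) and Vegfb (787 ± 214), whose ranges overlapped. Vegfc was next at 479 ± 51, with a range (431 to 532) that only Kdr crossed. Pgf (366 ± 36.5), Kdr (361 ± 354), Angpt2 (349 ± 52.9) and Flt1 (312 ± 107) overlapped in range, and Flt4 (106 ± 19.9) and Angpt1 (50.1 ± 3.15) were the lowest.

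Among RNAs of ligands for FLT1, Vegfa stood higher relative to Vegfb and to Pgf in every stimulated library than in any control. RNA ratios do not give the levels of the proteins. Per kilobase, Vegfa was at 0.789, 1.04 and 0.889 times Vegfb in control replicates 1, 2 and 3 and at 2.36, 5.02 and 2.95 times in the stimulated ones. Against Pgf, Vegfa was at 2.05, 0.852 and 2.05 times in controls and at 6.25, 7.38 and 7.05 times after stimulation. The ratio of Kdr to Flt1 per kilobase, by contrast, went with the replicate number in both groups: 0.355, 1.81 and 0.85 in controls against 0.383, 1.81 and 0.786 after stimulation. Angpt2 was at 4.25 to 8.64 times Angpt1 in controls and at 6.33 to 8.21 times after stimulation, which overlap. These ratios use the same values as the changes above and were not tested.

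How far each gene followed the endothelial excess of replicate 2 was read from its level there over the mean of replicates 1 and 3. For the 20 endothelial markers this ratio had a median of 3.69 in controls (1.74 to 6.46) and 3.56 in stimulated samples (0.938 to 4.07). Over all 13185 genes with a mean of at least 50 the medians were 0.992 and 1.01. The excess was not confined to endothelial markers. For 8 epithelial markers the medians were 4.06 and 2.45, and for 4 mesothelial markers 3.93 and 4.55. For 7 pericyte markers they were 2.68 and 1.64. The ratio alone cannot tell these cell types apart. Kdr had a ratio of 4.15 in controls and 4.68 after stimulation, within the endothelial range in controls and above it in stimulated samples. No other member reached the median of the endothelial markers in either group. Flt4 had ratios of 1.59 and 1.36 and Flt1 of 1.31 and 1.62, between the medians of the endothelial markers and of all genes. Pgf combined 2.46 in controls with 1.12 after stimulation. Vegfa (1.02 and 1.25), Vegfc (1.37 and 1.18), Angpt1 (1.33 and 0.977), Angpt2 (0.707 and 1.27), Angptl4 (0.817 and 0.999) and Vegfb (0.824 and 0.65) had no ratio above that of Vegfc in controls.

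**Figure D3:**
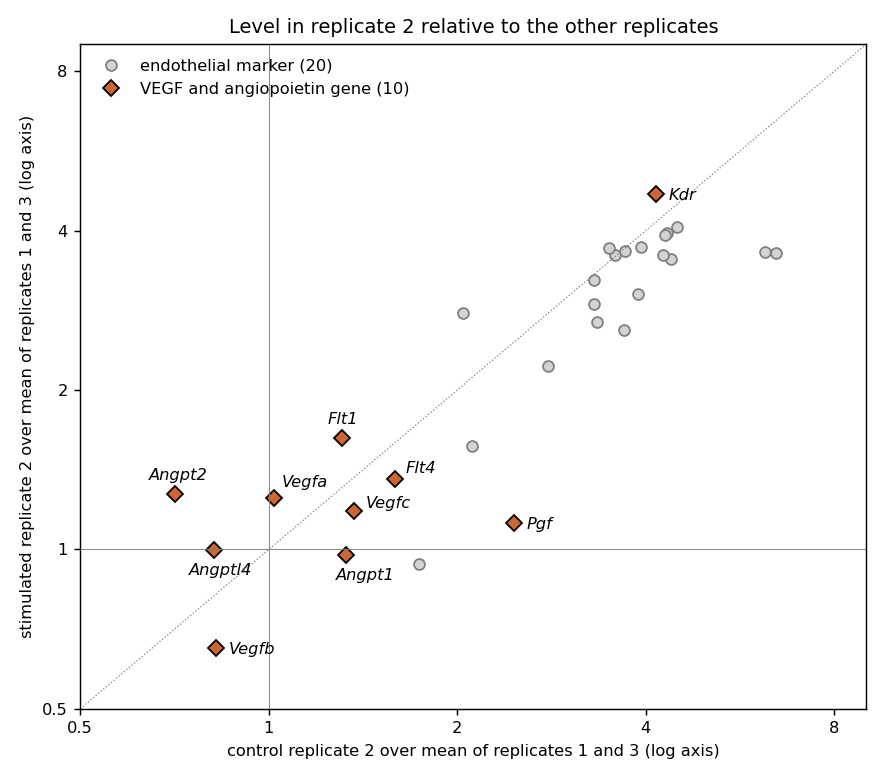
Level in replicate 2 divided by the mean of replicates 1 and 3, in controls (horizontal, log axis) and stimulated samples (vertical, log axis), for the 10 genes (diamonds) and 20 endothelial markers (circles); the dotted line marks equal ratios. Kdr lies at 4.15 and 4.68, above every endothelial marker in the stimulated samples, and Pgf is the only one of the 10 with a ratio above 2 in controls and near 1 after stimulation.

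The receptor genes were also set against the summed endothelial markers, as normalized read counts per 1000 of that sum. Kdr was at 26.3, 41.5 and 41.9 per 1000 in controls and at 66.4, 159 and 135 in stimulated samples, and on this scale its groups did not overlap. Its highest control was 1.59 times its lowest on this scale, against 5.96 times without it, and for the stimulated samples these ratios were 2.39 and 9.68. Flt1 was at 111, 34.2 and 73.6 per 1000 in controls and 259, 131 and 256 after stimulation, also without overlap, but with replicate 2 the lowest of each group. For Flt1 the division widened the control range from 1.5-fold to 3.23-fold and left the stimulated range close to what it was (2.05-fold before and 1.97-fold after). Flt4 was at 62, 27.4 and 57.8 in controls and 74.6, 24.5 and 45.9 after stimulation, which overlap. Lack of overlap on this scale was not confined to receptors. The ligand gene Vegfc was at 29.5, 11.1 and 27.1 in controls and 109, 30.3 and 64 after stimulation, and the other ligand genes overlapped. The endothelial sum itself changed by ratios of 0.831, 0.891 and 1.09 in pairs 1, 2 and 3, and the log2 changes of its 20 markers ran from -1.90 to 2.13. None of its 20 markers was called by limma with treatment only (1 had an unadjusted p under 0.05, and limma-voom called none). With the block 3 were called higher and 6 lower, against 14.9% and 12% of all genes tested. The 3 called higher are near the share of all genes. The part that endothelial or other cells had in the changes of these genes was not tested.

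**Figure D4:**
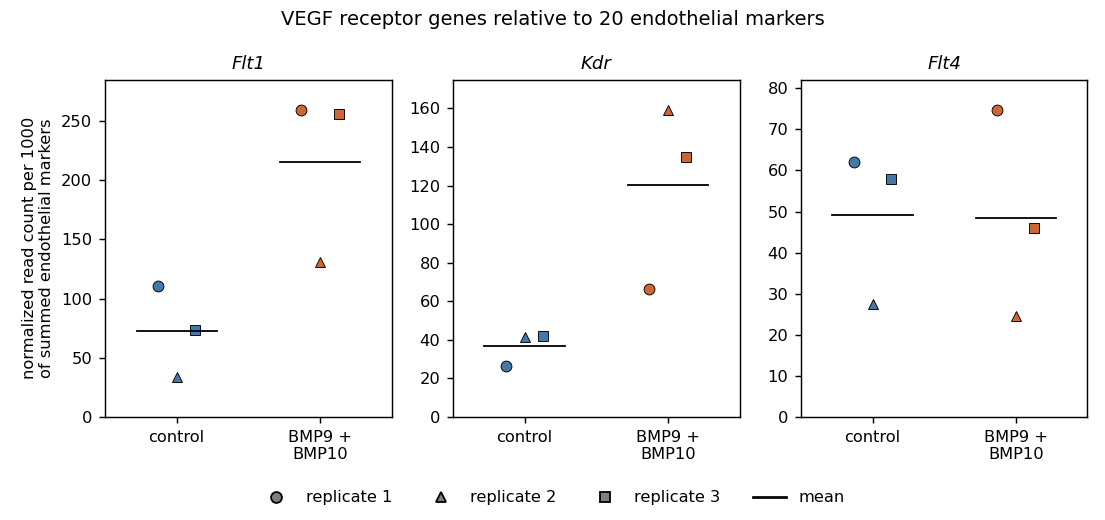
Flt1, Kdr and Flt4 in each library as normalized read counts per 1000 of the summed level of 20 endothelial markers (vertical axes, from 0); symbols mark the replicate number and bars the group mean. On this scale the stimulated libraries of Flt1 (131 to 259) and Kdr (66.4 to 159) lie above their controls, and those of Flt4 do not.

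For each gene the most similar profiles were those with the smallest root-mean-square difference in log2 value over the 6 libraries, each gene centred on its own mean, among 12522 other protein-coding genes with a mean of at least 50. Kdr was nearest to Acer2 (0.282), Cyyr1 (0.293) and Sox7 (0.308), of which Cyyr1 is on the list of endothelial markers. Flt1 was nearest to Nkd2 (0.159), Foxq1 (0.163) and Smad9 (0.169), a BMP-activated SMAD gene, and Flt4 to Crip1 (0.0319), Tube1 (0.0472) and Tmem176b (0.0499). Vegfa was nearest to Sphk1 (0.076), Gmppb (0.0795) and Yrdc (0.0892), and Vegfc to the collagen receptor gene Ddr1 (0.0787), the AP-1 gene Junb (0.107) and Dock5 (0.111). Vegfb was nearest to Ctsk (0.0335), the gene of the protease cathepsin K, Atp6v0a1 (0.0579) and Hps1 (0.0591). Pgf was nearest to Arrb1 (0.0781), which had 4193 in control replicate 2 against 1829 and 1734 in the other controls, then to Pik3c2b (0.14) and Gbp9 (0.144). Angptl4 was nearest to Echdc3 (0.117), Bicd1 (0.122) and Hspa12a (0.126), Angpt1 to Pcdhb20 (0.0738), Zfp217 (0.095) and Maob (0.0983), and Angpt2 to Ppp1r1a (0.101), Zfp428 (0.102) and Rbm38 (0.104). These values describe likeness over 6 libraries that share treatment and replicate number.

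Of 55 other genes of the pathway found in the matrix, 11 rose, 2 fell and 42 did not pass (17 higher and 12 lower with the block), with a median log2 change of -0.03. Over all genes tested, 8.61% were called higher and 4.75% lower, or 14.9% and 12% with the block, so the 2 that fell are near the share of all genes. Of the 6 co-receptors and Tie receptors none was called (none had an unadjusted p under 0.05, limma-voom called none, and the block fit called 1 higher and 1 lower). The co-receptor Nrp1 was at 6426 ± 421 and 5710 ± 1224. Tek and Tie1, named here after their values were seen because they are the angiopoietin receptors, had replicate 2 ratios like those of the endothelial markers, 3.45 and 3.52 for Tek and 3.99 and 4.12 for Tie1. Tek was lower in each pair, at 0.583, 0.618 and 0.617 of the control (limma adjusted p = 0.558, and 0.00165 with the block). Kdr and Tek, both high in replicate 2, thus had pair ratios on opposite sides of 1 in all 3 pairs. None of the 8 other ligands was called (none with an unadjusted p under 0.05 and none by limma-voom, 1 higher with the block); Angptl6 was at 79 ± 5 and 53 ± 16.5 (limma adjusted p = 0.188).

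Among 6 genes for proteins that process or bind VEGF ligands, 2 rose and 1 fell (3 and 1 with the block). Ccn2 (log2 change 3.38 ± 0.14) and Thbs1 (1.72 ± 0.13), whose secreted products can bind VEGF-A, rose. For Ccn2, 23.2% of the exonic bases are shared with exons of the other strand. Ccbe1, needed with a protease to activate VEGF-C, fell from 1290 ± 207 to 823 ± 69.7 (-0.64 ± 0.14, limma adjusted p = 0.0274), while Vegfc itself rose. That call did not hold when control replicate 2 (limma adjusted p = 0.06) or 3 (0.106), stimulated replicate 2 (0.0717) or 3 (0.114), or both replicate 2 libraries (0.106) were left out. Of 7 receptor signalling genes 1 rose, the focal adhesion kinase gene Ptk2 (0.69 ± 0.08), and none fell. With the block 2 were called higher and 2 lower. The latter include the endothelial nitric oxide synthase gene Nos3 (limma adjusted p = 0.00131, and 0.343 with treatment only), named after its values were seen. Its pair ratios were 0.349, 0.44 and 0.477, and 32.3% of its exonic bases are shared with exons of the other strand.

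Of 9 oxygen-sensing genes, which set the level of the hypoxia-inducible factors that drive Vegfa, 3 rose and none fell (4 higher and 2 lower with the block). Hif1a, the inducible factor, rose from 6052 ± 348 to 8925 ± 444, and Vhl (832 ± 108 to 1481 ± 104) and Egln1 (2149 ± 31.9 to 3466 ± 336), which mark it for breakdown, rose as well. Of 10 genes that endothelial cells are known to induce with VEGF, 5 rose and 1 fell (6 and 1 with the block), against 8.61% and 4.75% of all genes tested. F3, tissue factor, rose by 1.22 ± 0.17 and the phosphatase gene Dusp5 by 0.85 ± 0.11, although 22.1% of the exonic bases of Dusp5 are shared with the other strand. Esm1 (1.77 ± 0.31), Nr4a2 (1.00 ± 0.23) and Rcan1 (0.61 ± 0.11) rose too and are named after their values were seen. Their replicate 2 ratios in controls were 0.985, 0.761 and 0.9, and those of F3 and Dusp5 were 1.47 and 1.12. For the endothelial markers the median was 3.69. Dll4, also named after its values were seen, had ratios of 4.86 and 6.58 and was called in neither fit. Its pair ratios were 0.35, 2.77 and 3.63. Which cells carried these changes was not tested. Apln, the apelin gene, fell from 1673 ± 568 to 197 ± 52.2 (-3.06 ± 0.27, limma adjusted p = 0.00126). Of 9 genes around ANGPTL4 in lipid handling none was called with treatment only (3 had an unadjusted p under 0.05, limma-voom called 4, and the block fit called 5 lower). Ppara, the gene of a nuclear receptor that induces Angptl4, was at 40.3 ± 13.1 and 18 ± 1 (-1.08 ± 0.30, limma adjusted p = 0.0602), and passed in 6 of 18 alternative fits (lowest limma adjusted p = 0.0217).

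**Figure D5:**
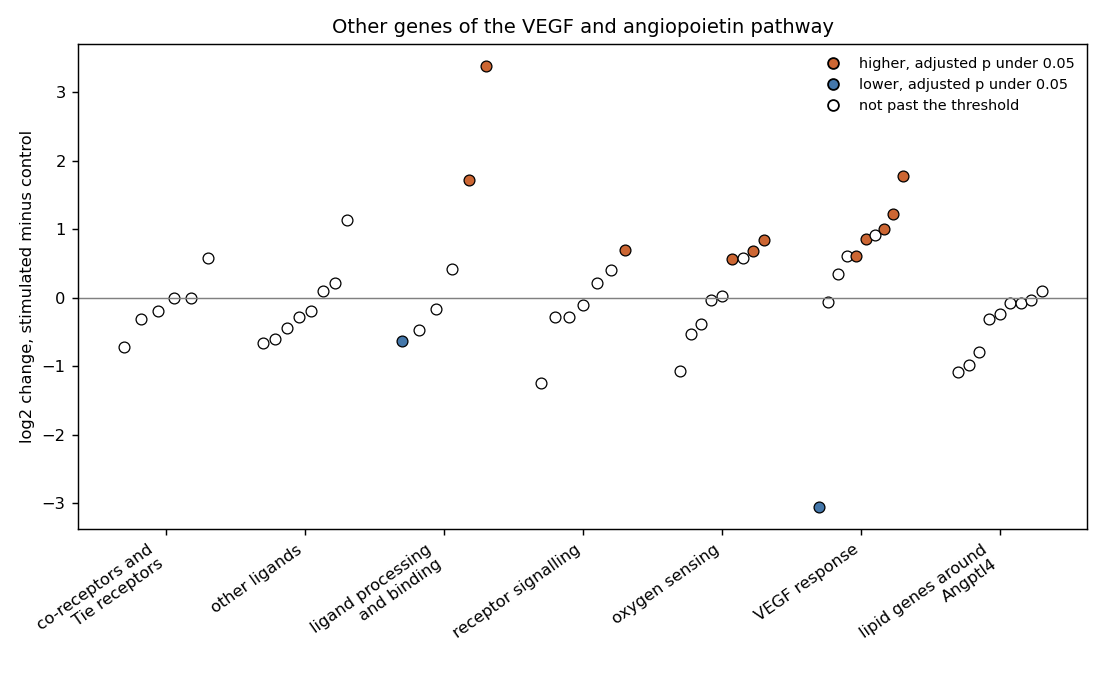
Log2 change (vertical axis, stimulated minus control) of 55 other pathway genes by list; filled points passed limma at an adjusted p under 0.05. The VEGF response list holds 5 of the 11 rises, and the deepest fall is Apln at -3.06.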

How the data were processed

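Total RNA of 3 control and 3 stimulated PASMC samples was made into stranded libraries, per the labels' protocols. The submitters' processing notes name, for alignment and counting, STAR 2.6.1d and featureCounts 1.6.3, besides Trimmomatic 0.38, DESeq2 1.18.1 and FastQC, and list mm10 next to hg38 and GRCh38. No source used here gives the annotation or strand setting. The deposited values are a score per gene and library (called normalized read count here): whole numbers are skipped at regular steps in 4 of 6 columns, as rounding after scaling gives, so reads were not recovered and no count model was used. Depth behind them (23.2 to 54.3 M reads) was estimated from those steps, and from the value spectrum in control replicate 2 and stimulated replicate 3, which show none and whose depth is least certain.

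limma 3.58.1 (R 4.3.3) with an intensity trend was fitted to log2(value + 1) of 21743 genes with a mean of at least 1 (42 left out), treatment as the only term, Benjamini-Hochberg threshold 0.05. The fit was also run on simulated libraries drawn independently, without the replicate and cell marker differences seen here. That run therefore does not bear on how the fit handles those differences. Fold changes on this scale understate those of low genes. Of the identifiers, 21747 matched GENCODE M21 (mm10). Replicate numbers are shared in the labels; over 13185 genes, the deviations of libraries 1, 2 and 3 from their group mean had correlations of 0.747, 0.741 and 0.218 with those of the like-numbered library, all above 0.1, and the numbers were treated as pairs. Control replicate 3 was closer to stimulated replicate 1 (0.287). The 18 alternatives were a replicate block, 2 pseudocounts (0.1 and 5), 2 filters, 4 scalings, equal totals with the block, limma-voom, leaving out each library and leaving out both replicate 2 libraries. Members, lists and tests were chosen with earlier results of these data known. Text names all members, per pathway list up to 3 called genes of smallest p (else 1), and the 3 nearest profiles of each member; other names are marked.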

Additional observations from a re-analysis of the deposited data

How the results depend on the processing

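Of the 10 members, Vegfa, Vegfc and Angptl4 kept their calls and Angpt1 and Angpt2 stayed uncalled in all 18 alternative fits. With the replicate block, whose pairing was weak for number 3 (correlation of 0.218), 4 members were called higher and 3 lower. Of all genes tested, that fit called 14.9% higher and 12% lower. With equal library totals and the block there were 4 and 4, since Flt4 was then called lower (-0.35, limma adjusted p = 0.0351). Of 21723 genes, that fit called 2042 higher and 4916 lower, with a median log2 change of -0.20. Without one library at a time, 2 to 3 members were called higher and 1 to 2 lower, against 659 to 1583 and 258 to 801 of all genes. The only change of sign among the members was that of Flt4, which ranged from -0.32 to 0.05 without one library, the latter without control replicate 2. Without both replicate 2 libraries 3 members were called higher and 1 lower, against 1505 and 893 of 21602 genes.

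Over all genes, 1873 were called higher and 1032 lower. With the replicate block there were 3232 and 2605, with equal totals 1135 and 2265, and with equal totals and the block 2042 and 4916. limma-voom, which also scaled values to library totals, gave 1128 and 2252. Leaving out one library gave 659 to 1583 higher and 258 to 801 lower, fewest without stimulated replicate 3, at 659 and 258; without control replicate 1 there were 838 and 326, and without control replicate 3 851 and 312. For the other pathway genes, the 11 higher became 17 with the replicate block and 9 to 12 without one library. The 2 lower became 12 with the block, 16 with equal totals and the block, 7 with equal totals, 7 with limma-voom, 5 with upper-quartile factors, 5 with a filter of 1 CPM in 3 libraries, 4 without both replicate 2 libraries and 1 to 3 without one library (1 without control replicate 3 or without stimulated replicate 3). The endothelial markers, none called with treatment only, had 3 higher and 6 lower with the block and 2 higher and 8 lower with equal totals and the block. The cause of these shifts was not tested. On the values as deposited, the block changed no call of a member beyond Kdr, Vegfb and Pgf. With 3 samples per group and 4 residual degrees of freedom, a p that misses the threshold does not show that a gene was unchanged. No member was near the detection limit, the lowest value being 247.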
